A study of Mus musculus with 10 samples.

Results

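Transcript levels of the receptors, co-receptors and Gli transcription factors of the hedgehog pathway were examined in granule cell precursors cultured from the cerebellum of young mice. The 9 genes were Ptch1, Smo, Hhip, Boc, Cdon, Gas1, Gli1, Gli2 and Gli3. They were chosen by gene symbol, and every probe set (a group of short array probes for 1 transcript) annotated to 1 of these symbols alone was read on every array. This gave 24 of the 45101 probe sets on the array, and 9 of the 18193 genes that the annotation names.

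Granule cell precursors divide in the outer layer of the young cerebellum, and their main mitogen is sonic hedgehog (Shh), which Purkinje cells secrete. Shh binds the membrane receptor Ptch1, with the help of the co-receptors Boc, Cdon and Gas1, and this frees the transmembrane protein Smo to signal through the primary cilium. The signal turns the Gli proteins from repressors into activators of transcription. Gli2 acts mainly as an activator and Gli3 mainly as a repressor, while Gli1 is an activator whose gene is itself a target. Ptch1 and Hhip, which both bind and sequester Shh, are also targets and damp the signal, and Boc, Cdon and Gas1 have been described as genes that Shh signalling lowers in several embryonic tissues.

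The title of the series names the part Bmi1 plays in expression shifts driven by Shh. Bmi1 is a subunit of Polycomb repressive complex PRC1. Cultures came from wild type mice or from Bmi1 knockout mice (Bmi-1-/- in the series' text, with no description of the deleted part in the sources used here). The pups were at postnatal days 5 to 7 by the sample characteristics. All cultures were grown for 24 hours with 10% fetal calf serum and 20 mM KCl after the meninges and blood vessels had been removed. Part of them received Shh for 24 hours at a concentration labelled as 3 mg/ml. The sources used here do not say how long in all the untreated cultures were kept. Differences with Shh given below therefore cannot be told apart from any difference in total culture time, which was not tested. The groups were wild type untreated (replicates 1, 3 and 5), Bmi1 knockout untreated (2, 4 and 6), wild type with Shh (7 and 9) and Bmi1 knockout with Shh (8 and 10), with 1 array per culture. Wild type replicate 3 carries a note on Shh where applicable, but was titled and described as untreated and was used so. The submitters call the cultures biological replicates, and the number of animals in each is not given, so p-values measure the spread between these arrays.

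Values are MAS5 signal intensity, a linear scale on which each array had a trimmed mean of 500. Untreated arrays had median signals of 84.4 to 90.9, and those with Shh of 66.6 to 72.1. The 18S ribosomal RNA control read 2030 on replicate 1 and 6301 on replicate 6, against 219 to 648.6 on the other arrays. Signal of the Bmi1 probe set averaged 3610 ± 259 (SD, n = 3) in knockout and 3958 ± 290 in wild type untreated cultures. It may lie outside the deleted part and does not check the genotype. Defining markers of the labelled cell type were bright in all groups, with Atoh1, the transcription factor that marks granule precursors, at 1431 to 2256 and Zic1 at 11190 to 14590. Markers of other cell types were present too, and many of them fell with Shh.

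**Figure D1:**
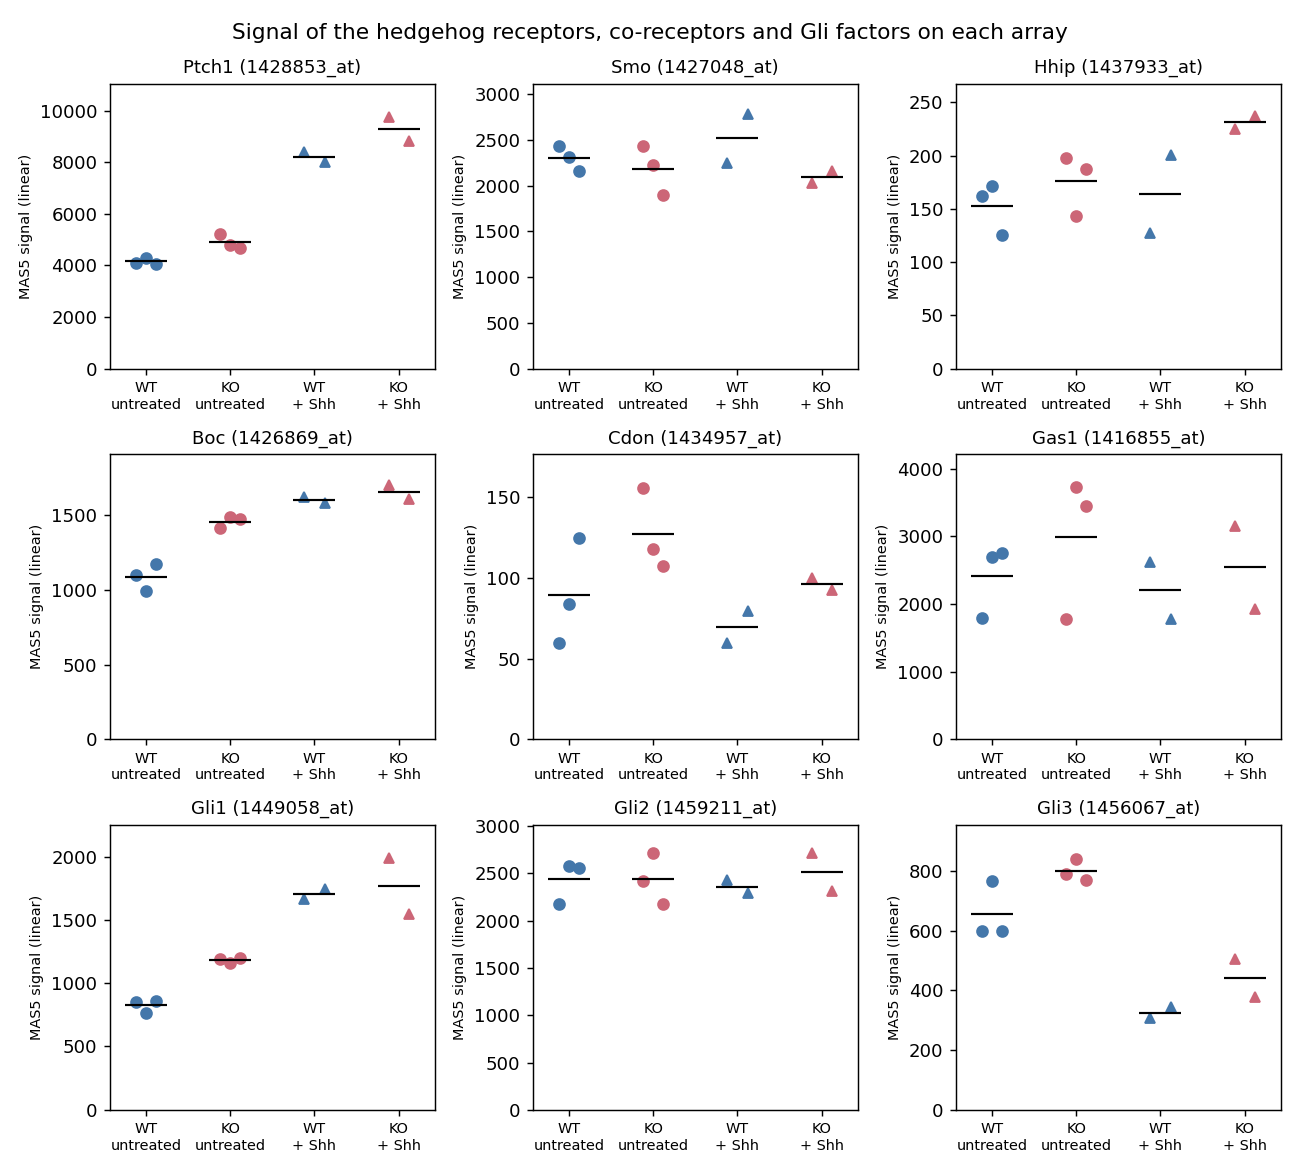
MAS5 signal (linear scale, starting at 0) of the brightest probe set of each of the 9 genes on each array, by group. Circles are untreated and triangles Shh-treated cultures, blue is wild type and red Bmi1 knockout, and the black line is the group mean. In both genotypes Ptch1 and Gli1 were higher and Gli3 lower on every Shh-treated array than on any untreated array, whereas untreated and treated arrays overlapped for Smo, Gli2 and Gas1.

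The first comparison asked how the genes differed between wild type cultures with and without Shh. The receptor gene Ptch1 and the activator gene Gli1 rose 1.97-fold and 2.07-fold, the co-receptor gene Boc rose 1.48-fold, and the repressor gene Gli3 fell to 0.5 of its untreated level. Smo, Hhip, Cdon, Gas1 and Gli2, on the probe set with the highest mean, did not pass the test. Of the 9 genes 3 were called higher and 1 lower (limma, Benjamini-Hochberg adjusted p under 0.05 over 11405 genes). Among all genes tested, 14.0% were called higher and 19.8% lower in this comparison, so large a share that 4 of 9 is close to the 33.8% called in either direction. The groups of arrays did not overlap for the same 3 and 1 genes, as for 27.3% and 31.2% of all genes. The median log2 difference was 0.07 over the 9 genes and -0.01 over all genes. In these bulk cultures, a lower signal from fewer cells of a type cannot be told apart from less RNA per cell.

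Among the receptors, Ptch1 (probe set 1428853_at) read 4108, 4295 and 4065 in untreated and 8376 and 8013 in Shh-treated wild type cultures. Both treated arrays lay far above all 3 untreated ones. The difference was 1.97-fold (log2 0.98, SE 0.09, 95% interval 0.77 to 1.19, adjusted p = 9.79e-05 by limma). Smo (1427048_at), the signal transducer that Ptch1 holds in check, read 2437, 2312 and 2163 without and 2251 and 2785 with Shh. The groups overlapped, and the difference was 0.12 (interval -0.18 to 0.43, adjusted p = 0.521). For Hhip (1437933_at), the decoy receptor, the untreated arrays read 161.8, 171.7 and 125.8 and the treated ones 127.1 and 200.6. The 2 treated arrays spanned the untreated ones, and the log2 difference of 0.07 had a wide interval (-0.42 to 0.57, adjusted p = 0.825).

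Of the co-receptors, Boc (1426869_at) read 1098, 992.4 and 1171 without and 1624 and 1578 with Shh. It was higher on both treated arrays, by 1.48-fold (log2 0.56, SE 0.10, adjusted p = 0.00229). Gas1 (1416855_at), which encodes a membrane-anchored Shh-binding protein, read 1799, 2694 and 2751 without and 2615 and 1781 with Shh. Its arrays spread widely within each group, so that the interval of the log2 difference ran from -0.94 to 0.67 (adjusted p = 0.8). Cdon (1434957_at), the close relative of Boc, gave a low signal of 59.68, 83.79 and 125.1 without and 59.87 and 79.8 with Shh. The groups overlapped, and the difference of -0.31 did not pass (interval -0.95 to 0.33, adjusted p = 0.438).

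The Gli genes differed from one another. Gli1 (1449058_at) read 852.7, 763.6 and 856.9 in untreated and 1665 and 1745 in treated wild type cultures, without overlap. The difference was 2.07-fold (log2 1.05, SE 0.12, interval 0.78 to 1.32, adjusted p = 0.000235). Gli3 (1456067_at) moved the other way, from 598.2, 768 and 599.2 without Shh to 307.7 and 344.3 with it. All treated arrays lay below all untreated ones (0.5-fold, with SE 0.15 and an interval of -1.35 to -0.65 on the log2 scale, adjusted p = 0.00131). Gli2 (1459211_at) read 2178, 2580 and 2556 without and 2427 and 2291 with Shh, so the groups overlapped, and the difference was -0.04 (interval -0.34 to 0.25, adjusted p = 0.822). The calls of Ptch1, Gli1, Boc and Gli3 in wild type cells held without any 1 of the 10 arrays and under the other 12 settings tried.

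The bases just upstream of the transcription start are shown for Ptch1, which rose, and Gli3, which fell, together with Gli2, whose window held the most matches to the core of the Gli binding motif. Sequences are the 250 bases before the RefSeq start, on the strand of the gene, from GRCm38.p6. They lie at chr13:63565736-63565985 (minus strand, Ptch1), chr13:15463473-15463722 (plus strand, Gli3) and chr1:119053620-119053869 (minus strand, Gli2). Capitals mark CCACCC on either strand (GGGTGG on the printed one).
Ptch1: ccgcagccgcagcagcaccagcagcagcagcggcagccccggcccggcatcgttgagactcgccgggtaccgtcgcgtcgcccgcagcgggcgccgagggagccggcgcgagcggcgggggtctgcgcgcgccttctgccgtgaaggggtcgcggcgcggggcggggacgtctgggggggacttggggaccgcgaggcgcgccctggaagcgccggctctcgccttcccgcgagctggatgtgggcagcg
Gli3: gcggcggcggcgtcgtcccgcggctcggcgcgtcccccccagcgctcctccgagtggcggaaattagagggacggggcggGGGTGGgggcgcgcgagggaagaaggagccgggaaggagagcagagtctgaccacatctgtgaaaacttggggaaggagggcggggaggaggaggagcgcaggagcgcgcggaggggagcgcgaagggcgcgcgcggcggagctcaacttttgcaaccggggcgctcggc
Gli2: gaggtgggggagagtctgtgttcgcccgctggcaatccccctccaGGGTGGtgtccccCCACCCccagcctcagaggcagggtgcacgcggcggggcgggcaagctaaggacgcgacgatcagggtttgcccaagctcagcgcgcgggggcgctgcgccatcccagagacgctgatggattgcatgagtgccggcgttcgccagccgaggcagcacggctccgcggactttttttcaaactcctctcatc
The consensus searched was GACCACCCA, the sequence that Gli proteins are known to bind, on both strands. It occurred in 0 of the 7 windows found for these genes and in 74 of 32851 windows of the same length in the RefSeq table (0.225%). Its inner part CCACCC, which every such match also contains, occurred in 28.1% of all windows. There were 2 matches for Gli2, 1 each for Gli3, Smo and Hhip, and 0 for Ptch1, Cdon and Gas1. These matches only describe the letters of this short window. Gli1 and Boc had no entry in the table.

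In Bmi1 knockout cultures the same question gave a rise of Ptch1 and Gli1 and a fall of Gli3. Ptch1 differed by 1.89-fold, Gli1 by 1.48-fold and Gli3 by 0.546-fold. Boc was not called on the probe set with the highest mean. With 2 genes called higher and 1 lower of 9, the counts stand against 11.0% and 17.0% of all genes (28.0% in either direction). The treated arrays lay wholly above the untreated ones for 4 genes and wholly below for 2, against 26.1% and 29.5% of all genes, and the median difference was 0.04 against -0.01 over all genes. The comparison shares no array with that in wild type cells.

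In knockout cells Ptch1 read 5228, 4787 and 4686 without and 9753 and 8809 with Shh, and the groups lay far apart. The log2 difference was 0.92 (SE 0.09, interval 0.71 to 1.13, adjusted p = 0.000197). Hhip read 197.3, 143.5 and 187.2 without and 225 and 237.6 with Shh. Both treated arrays were above all untreated ones, but the difference of 0.41 did not pass (interval -0.09 to 0.90, adjusted p = 0.2). Smo read 2431, 2228 and 1898 without and 2026 and 2160 with Shh, and these overlapped (log2 -0.06, interval -0.36 to 0.25, adjusted p = 0.791).

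Boc in knockout cells read 1411, 1486 and 1472 without and 1699 and 1605 with Shh. The treated arrays were the higher ones, by a log2 difference of 0.18 that did not pass (interval -0.04 to 0.40, adjusted p = 0.196). Gas1 again spread widely, at 1782, 3732 and 3450 without and 3154 and 1927 with Shh (log2 -0.21, interval -1.01 to 0.60, adjusted p = 0.707). Cdon read 156, 118 and 107.8 without and 99.75 and 92.35 with Shh, lower on both treated arrays but not past the test (log2 -0.39, interval -1.03 to 0.25, adjusted p = 0.348).

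Gli1 in knockout cells read 1193, 1156 and 1199 without and 1987 and 1550 with Shh. Both treated arrays exceeded the untreated ones but differed from each other by more than any other pair of Gli1 replicates (log2 0.57, SE 0.12, interval 0.30 to 0.84, adjusted p = 0.00692). Without replicate 8 the difference was 0.39 and the call was lost (adjusted p = 0.0633), while it held without each of the other 9 arrays. Gli3 read 789.6, 842.4 and 770 without and 505.2 and 378.3 with Shh, lower on both treated arrays (log2 -0.87, SE 0.15, interval -1.22 to -0.52, adjusted p = 0.00329). Gli2 read 2425, 2715 and 2180 without and 2713 and 2314 with Shh, with overlap (log2 0.04, interval -0.25 to 0.34, adjusted p = 0.829).

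**Figure D2:**
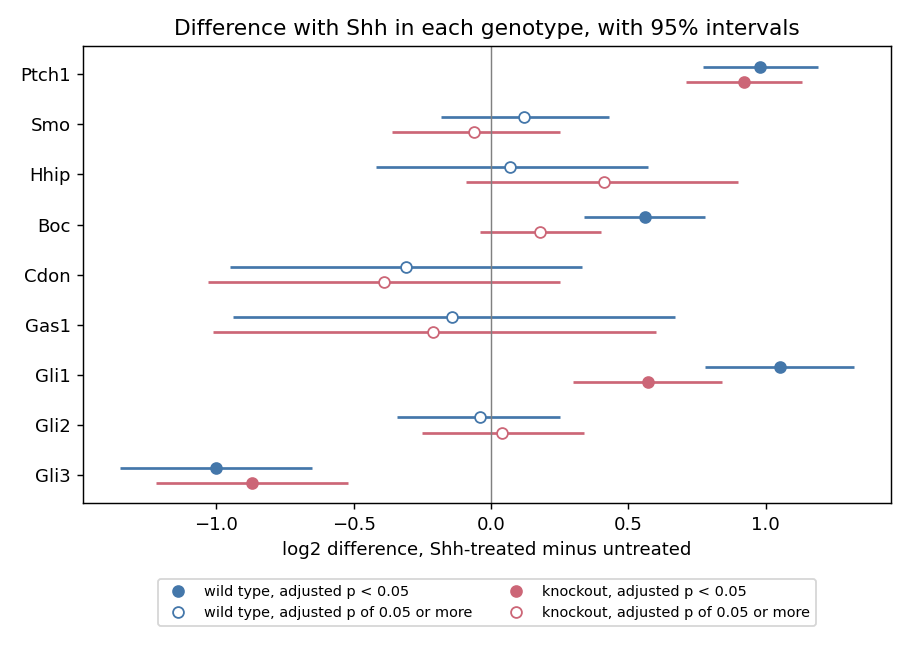
Log2 difference between Shh-treated and untreated cultures for each gene, in wild type (blue) and Bmi1 knockout cells (red), with 95% intervals of the limma fit. Filled points passed an adjusted p of 0.05. Ptch1 lay at 0.98 and 0.92, Gli1 at 1.05 and 0.57 and Gli3 below 0 in both, while the intervals of Smo, Hhip, Cdon, Gas1 and Gli2 crossed 0 in both genotypes.

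Markers of other cell types moved with Shh treatment. The summed signal of 12 endothelial and pericyte markers was 7651 to 9032 in untreated and 509 to 611.4 in Shh-treated wild type cultures, and 7804 to 9593 against 656.7 to 659.1 in knockout cultures. Of the 9 that were tested, 9 fell in wild type and 8 in knockout cells. Cspg4 is in this list and in that of the oligodendrocyte lineage. For 18 astrocyte and Bergmann glia markers the sum was 79870 to 100600 without and 41460 to 43550 with Shh in wild type cells, and 89270 to 92490 against 48620 to 54640 in knockout cells. Of 17 tested, 13 fell in each genotype, led by Gdf10, a Bergmann glia marker (log2 -4.10 in wild type and -3.08 in knockout cells), and the glial marker Sox9 rose in both (0.40 and 0.42). Gfap, which defines astrocytes, rose in knockout cells (0.54, adjusted p = 0.0372) and stood at 0.06 in wild type cells. Of 8 Purkinje cell markers 8 fell in wild type and 7 in knockout cells, with a sum of 18730 to 33280 against 6873 to 7200 in wild type. Of 10 oligodendrocyte lineage markers 8 and 6 fell, and of 12 microglia and macrophage markers 7 fell in each genotype. In these lists Pdgfra and Ptprc rose in both genotypes and Cd68 rose in knockout cells. Of 8 inhibitory interneuron markers 5 and 4 fell, and of 9 fibroblast and meningeal markers 5 and 7.

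The 11 granule cell precursor markers summed to 41260 to 45720 without and 44970 to 46490 with Shh in wild type cells, and to 39420 to 44070 against 44150 to 45560 in knockout cells. Of these 11, 2 rose in each genotype, Ccnd1 and Mycn, and 0 fell. Those 2 are Shh targets as well. The 13 maturing granule neuron markers summed to 81650 to 104500 without and 84280 to 86050 with Shh in wild type cells, and to 84190 to 90780 against 82700 to 88080 in knockout cells. Of the 11 that were tested, 3 fell in wild type (Cntn1, Neurod2 and Rbfox3) and 2 in knockout cells (Neurod2 and Cntn1), and 0 rose in limma. Bright genes outweigh dim ones in such sums. Gabra6 and Grin2c of this list were too dim to be tested. Gabra6 averaged 266.7 without and 20.82 with Shh in wild type cells, and 107.2 and 22.37 in knockout cells. Grin2c averaged 40.61 and 28.53 in wild type cells, and 64.43 and 32.27 in knockout cells. No marker of these lists was at the floor on all 10 arrays. The part of the other cell types in the differences of Ptch1, Gli1, Boc and Gli3 was not tested.

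**Figure D3:**
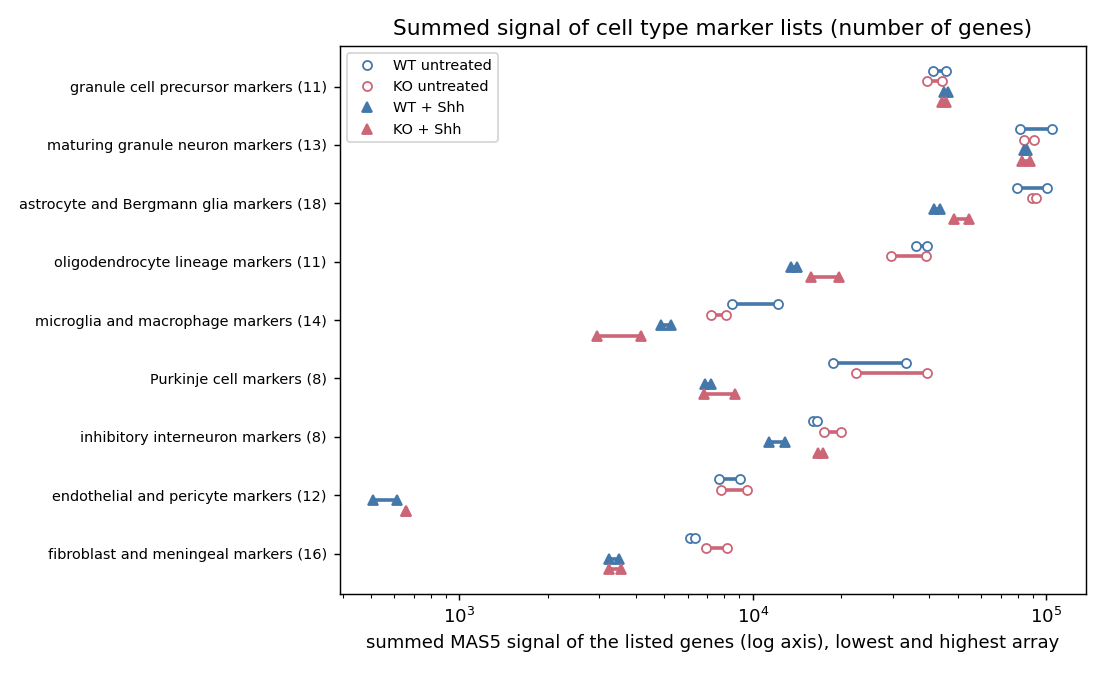
Summed MAS5 signal of cell type marker lists in each group (log axis), with the lowest and the highest array joined by a line and the number of genes on the array in brackets. Open circles are untreated and triangles Shh-treated cultures. The endothelial and pericyte sum was 7651 or more on untreated and at most 659.1 on Shh-treated arrays, while the granule cell precursor sum stayed between 39420 and 46490.

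The second question was how the genes differed between Bmi1 knockout and wild type cells that had received no Shh. On their brightest probe sets Ptch1, Boc, Gli1 and Gli3 lay higher on every knockout array than on any wild type array. The differences were 1.18-fold, 1.34-fold, 1.44-fold and 1.23-fold, but 0 of the 9 genes passed the adjusted threshold in limma. At an unadjusted p under 0.05 there were 3, Gli1, Boc and Ptch1. Of all genes 0.377% passed the adjusted threshold, 8.68% the unadjusted one, and 7.63% lay higher on all knockout arrays without overlap. The difference was above 0 for 7 of the 9 genes, with a median of 0.26 against 0.02 over all genes. Among the marker lists, 0 genes were called here, and those of microglia and macrophages had a median of -0.48, with 6 of 12 genes at an unadjusted p under 0.05. Those of inhibitory interneurons had a median of 0.61, with 4 of 8, and those of maturing granule neurons a median of -0.08, with 4 of 11. The part of these lists in the values of the 9 genes was not tested.

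By role, Gli1 showed a log2 difference of 0.52 (SE 0.11, interval 0.28 to 0.76, adjusted p = 0.113), with knockout arrays at 1156 to 1199 and wild type arrays at 763.6 to 856.9. Gli3 stood at 0.30 (interval -0.01 to 0.61, adjusted p = 0.604) and Gli2 at 0.00 (interval -0.26 to 0.26). On the other tested Gli3 probe set, 1455154_at, the groups overlapped and the difference was 0.17 (adjusted p = 0.881 in limma). The second Gli2 probe set, 1446086_s_at, gave 0.26 (adjusted p = 0.552 in limma). Its knockout arrays read 1135 to 1164 and its wild type arrays 852.2 to 1036. Among co-receptors Boc stood at 0.42 (SE 0.09, interval 0.23 to 0.62, adjusted p = 0.118), with 1411 to 1486 against 992.4 to 1171. Cdon stood at 0.56 (interval -0.02 to 1.13, adjusted p = 0.595) and Gas1 at 0.26 (interval -0.46 to 0.98). Ptch1 stood at 0.24 (SE 0.08, interval 0.05 to 0.43, adjusted p = 0.437), Hhip at 0.20 and Smo at -0.08. The Ptch1 value depended on the probe set, with 0.38 on 1439663_at and -0.52 on 1450824_at. With the mean of all its probe sets it was 0.03. The calls depended on the setting. With a mean-variance trend and robust prior in limma, Gli1 (adjusted p = 0.0278) and Boc (0.038) passed, and with a stricter filter on dim probe sets Gli1 did (0.0426). Over all the settings tried, including each array left out, the adjusted p ranged from 0.0278 to 0.45 for Gli1 and from 0.038 to 0.472 for Boc.

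With Shh in both genotypes, 2 arrays stood against 2. Of the 9 genes 0 passed in limma and 1, Gli3, had an unadjusted p under 0.05, against 0.728% of all genes past the adjusted threshold and 9.76% past the unadjusted one. Gli3 read 505.2 and 378.3 in knockout and 307.7 and 344.3 in wild type cells (log2 0.43, interval 0.04 to 0.81, adjusted p = 0.437). Hhip read 225 and 237.6 in knockout and 127.1 and 200.6 in wild type cells (log2 0.53, interval -0.01 to 1.07, adjusted p = 0.52). Both knockout arrays lay above both wild type arrays for Ptch1, Hhip, Cdon and Gli3 (22.3% of all genes did so) and below them for Smo (16.9%). Gli1 stood at 0.04 (interval -0.25 to 0.33) and Boc at 0.04 (interval -0.19 to 0.28), with overlapping groups. Of the glial and interneuron markers, the oligodendrocyte lineage list held 3 of 10 genes called higher in knockout cells with Shh (median log2 0.60), the astrocyte and Bergmann glia list 2 of 17 (0.24) and the inhibitory interneuron list 1 of 8 (0.76). The microglia and macrophage list held 1 of 12 called lower (median -0.37). The part of these markers in the values of the 9 genes was not tested.

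**Figure D4:**
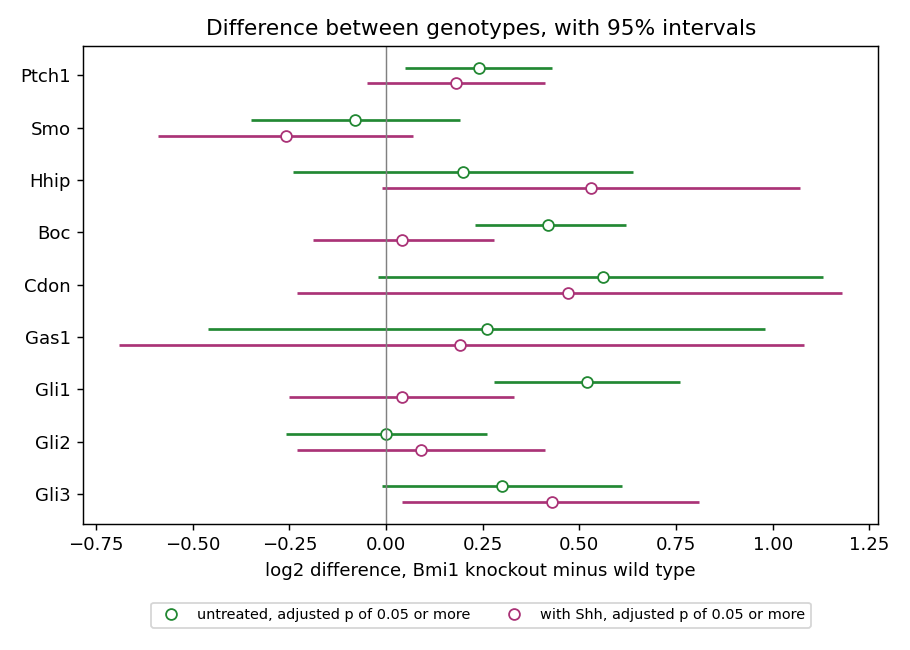
Log2 difference between Bmi1 knockout and wild type cells for each gene, untreated (green) and with Shh (purple), with 95% intervals of the limma fit. Open points did not pass an adjusted p of 0.05. Gli1 lay at 0.52 without and 0.04 with Shh and Boc at 0.42 and 0.04, while Ptch1 lay at 0.24 and 0.18.

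Averaged over both treatments, 8 of the 9 genes lay above 0, and 0 passed in limma although 6 had an unadjusted p under 0.05 (1.54% of all genes passed the adjusted threshold and 13.0% the unadjusted one). These were Gli3 at 0.36, Gli1 at 0.28, Boc at 0.23, Ptch1 at 0.21, Hhip at 0.37 and Cdon at 0.51, with adjusted p of 0.164 to 0.356. Markers moved in this average too, with 4 of 8 inhibitory interneuron genes called higher (median log2 0.76) and 3 of 12 microglia and macrophage genes called lower (median -0.48). Of 10 oligodendrocyte lineage genes 2 were called higher, among them Cspg4. Cspg4 is also the 1 of 9 endothelial and pericyte genes called higher, since both lists hold it. The part of these markers in the values of the 9 genes was not tested. Whether the response to Shh itself differed between genotypes was tested by the interaction term. Here 0 of the 9 genes passed in limma, against 0.00877% of all genes, and 2, Gli1 and Boc, had an unadjusted p under 0.05, against 4.92% of all genes. The Gli1 response in knockout cells minus that in wild type cells was -0.48 on the log2 scale (SE 0.17, interval -0.86 to -0.10, adjusted p = 0.902). With each array left out it ranged from -0.66 (without replicate 8) to -0.30 (without replicate 10). The same difference for Boc was -0.38 (SE 0.14, interval -0.69 to -0.07, adjusted p = 0.933). For Ptch1 the difference of responses was -0.06 (interval -0.36 to 0.24) and for Gli3 0.13 (interval -0.37 to 0.62). The Shh comparisons and the genotype comparisons share arrays. The higher untreated means of Gli1 and Boc in knockout cells and their smaller mean rises with Shh are therefore not separate observations. Neither passed the adjusted threshold in the reported limma fit. Of 10 oligodendrocyte lineage markers 6 had an unadjusted p under 0.05 for the interaction and 0 passed the adjusted threshold in limma (median log2 0.56), and their part was not tested.

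The order of the group means, on the brightest probe set of each gene, followed from these values. For Ptch1 it ran from wild type untreated (4156 ± 122, SD, n = 3) through knockout untreated (4900 ± 288) and wild type with Shh (8194 ± 256, n = 2) to knockout with Shh (9281 ± 668), and each group lay wholly above the one before. Gli1 kept the same order, with 824 ± 52.7, 1180 ± 23.5, 1710 ± 56.7 and 1770 ± 309, but the last 2 groups overlapped. Boc did likewise, with 1087 ± 89.6, 1456 ± 40.2, 1601 ± 32.6 and 1652 ± 66.7, again with overlap of the last 2. Gli3 ran from wild type with Shh (326 ± 25.9) through knockout with Shh (442 ± 89.8) and wild type untreated (655 ± 97.7) to knockout untreated (801 ± 37.4), each group wholly above the one before. For Smo, Gas1 and Gli2 every neighbouring pair of groups overlapped. For Hhip only knockout with Shh, and for Cdon only knockout untreated, lay wholly above the group ranked next below. Other probe sets did not keep all of these steps. On 1455154_at every neighbouring pair of Gli3 groups overlapped. The untreated Ptch1 groups overlapped on 1439663_at, and their means were reversed on 1450824_at (113.2 in wild type and 88.93 in knockout cells). The Boc means with Shh were reversed on 1427516_a_at (1705 in wild type and 1643 in knockout cells). The share of all genes with such steps was not counted.

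Other probe sets gave a check within a gene where they passed the filter on dim signal. In this fit each of 22519 probe sets was its own row (27.0% were called with Shh in wild type and 21.2% in knockout cells). Gli1 had no other probe set and Cdon no other that passed, so neither gene was checked in this way. Of the 24 probe sets of the 9 genes 18 passed the filter on dim signal. For Ptch1, 1439663_at read 179.9, 93.1 and 144.2 without and 218.6 and 250 with Shh in wild type cells. It rose in both genotypes (log2 0.80, adjusted p = 0.0333, and 1.01, adjusted p = 0.0161). The dim 1450824_at gave 0.48 (adjusted p = 0.484) and 0.96 (adjusted p = 0.174). For Boc, 1427516_a_at read 1033, 858.8 and 978.8 without and 1572 and 1837 with Shh in wild type cells, and 1158, 1227 and 1204 against 1609 and 1676 in knockout cells. It rose in both genotypes (log2 0.83, adjusted p = 0.00128, and 0.46, adjusted p = 0.0251), so whether Boc was called in knockout cells depended on the probe set. Its genotype difference without Shh was 0.33 (adjusted p = 0.449).

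The probe sets of Gli2 disagreed. On 1446086_s_at the signal was 1008, 1036 and 852.2 without and 1239 and 1275 with Shh in wild type cells, a rise of 0.39 (adjusted p = 0.0325), whereas 1459211_at gave -0.04. In knockout cells the same probe set read 1135, 1164 and 1148 without and 1327 and 1240 with Shh (log2 0.16, adjusted p = 0.357). The probe sets of Gli3 shared a direction but not a size. On 1455154_at the difference was -0.64 in wild type (adjusted p = 0.02) and -0.50 in knockout cells (adjusted p = 0.0638), smaller than on 1456067_at. With the mean of all Gli3 probe sets, the differences were -0.56 and -0.53, still called. The second Smo probe set, 1427049_s_at, gave 0.06 and -0.21, and the second Gas1 probe set, 1448494_at, read 698.6 to 1121 over all 10 arrays. For Hhip, 1455277_at gave 0.075 in wild type and 0.379 in knockout cells, and 1421426_at gave -0.218 and 0.171, without a call. The 6 probe sets left out as dim were 1 each of Smo, Hhip, Boc, Cdon, Gas1 and Gli3.

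**Figure D5:**
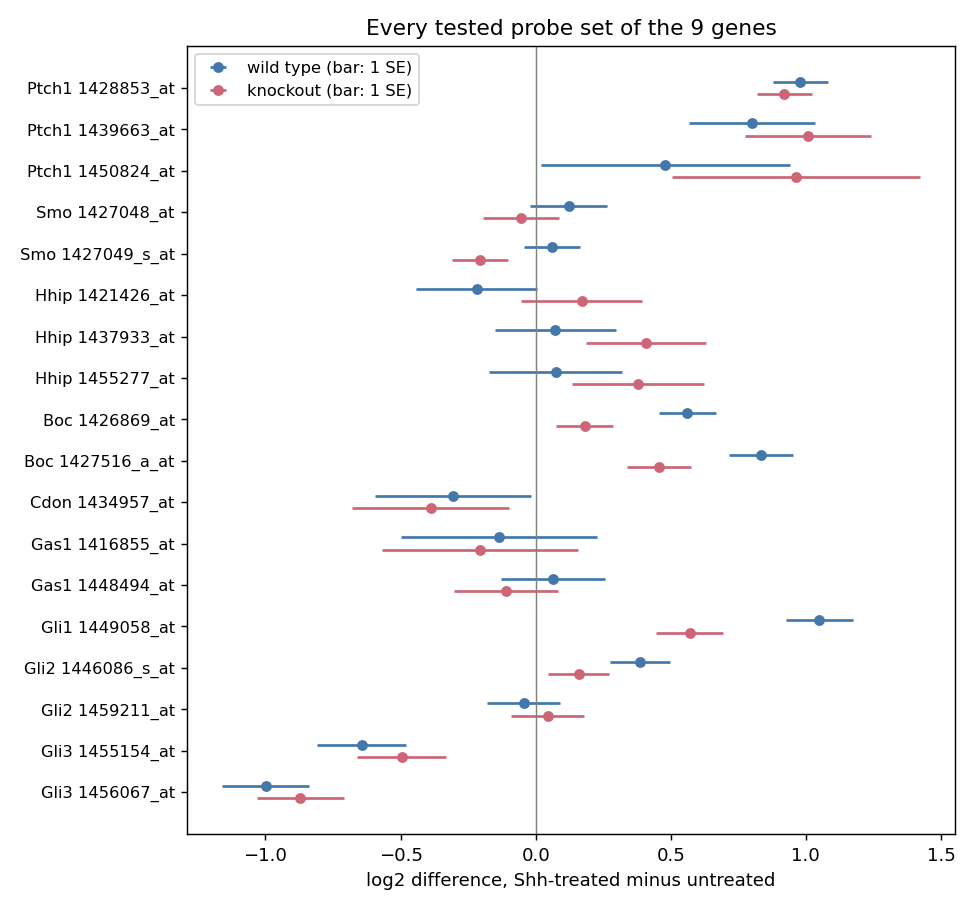
Log2 difference between Shh-treated and untreated cultures for each of the 18 tested probe sets of the 9 genes, in wild type (blue) and Bmi1 knockout cells (red), with bars of 1 SE. All 3 Ptch1 and both Boc probe sets lay above 0 and both Gli3 probe sets below 0 in each genotype, whereas those of Gli2 differed, with 0.39 on 1446086_s_at and -0.04 on 1459211_at in wild type cells.

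Genes with the most similar pattern were sought for Ptch1, Gli1 and Gli3, by the root mean square difference of log2 signals, each centred on its mean over the 10 arrays. Irs1, an adaptor of insulin and IGF receptors, lay nearest to both Ptch1 (0.103) and Gli1 (0.128). Its signal rose with Shh by log2 1.03 in wild type and 0.74 in knockout cells. Next came B3galnt2, a glycosyltransferase, for Ptch1 (0.115) and Rbm38, an RNA-binding protein, for Gli1 (0.128). Nearest to Gli3 were the transcriptional coactivator Eya1 (0.095) and the matrix proteoglycan Vcan (0.099), which fell by 0.95 and 0.92 on the log2 scale in wild type cells. The spread of the members themselves about their means was 0.481 for Ptch1, 0.455 for Gli1 and 0.511 for Gli3.

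The rest of the pathway was read from lists of ligands, surface regulators, cytoplasmic and ciliary regulators and target genes. Of 8 genes for ligands and their release 3 were tested. Scube2, a secreted protein that helps release Shh, fell by 2.43 on the log2 scale in wild type (adjusted p = 9.79e-05) and fell by 2.62 in knockout cells. Shh itself was 110, 311.6 and 215 without and 88.5 and 63.69 with Shh in wild type cells (log2 -1.37, adjusted p = 0.0785). In knockout cells it was 303.8, 103 and 331.1 against 69.71 and 53.62. Its fall there (log2 -1.83, adjusted p = 0.0326) was not called under 8 settings, among them the omission of replicate 2, 6, 8 or 10 (at most 0.154) and the fit with consecutive replicate numbers as a block (adjusted p = 0.0516). Purkinje cells are the known source of this ligand, and their markers fell as given above, but their part in the Shh signal was not tested. Disp1, which exports the ligand, rose in wild type cells (0.62, adjusted p = 0.0149, lost without replicate 9 at 0.113) and stood at 0.37 in knockout cells (adjusted p = 0.107).

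Of 10 other receptors and surface regulators 5 were tested, and 2 fell in wild type and 0 in knockout cells, where 2 had an unadjusted p under 0.05 in limma. Among all genes 19.8% fell in wild type and 17.0% in knockout cells. Gpc3, a glypican that binds Shh, stood at -1.62 in wild type (adjusted p = 0.000991) and -0.65 in knockout cells (adjusted p = 0.07). Mgrn1, a ubiquitin ligase for Smo, stood at -0.41 in wild type cells (adjusted p = 0.0255, lost without replicate 5, 7 or 9, up to 0.156).

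Among 37 tested cytoplasmic and ciliary regulators, 5 rose and 6 fell with Shh in wild type cells, and 5 rose and 5 fell in knockout cells. Of all genes tested, 14.0% rose and 19.8% fell in wild type cells, and 11.0% rose and 17.0% fell in knockout cells. Sufu, which holds Gli proteins in the cytoplasm, stood at 0.07 (adjusted p = 0.651) and 0.04 (adjusted p = 0.818). Evc and Evc2, the ciliary partners of Smo, fell in both genotypes, by 0.86 and 1.02 on the log2 scale in wild type and by 1.30 and 1.21 in knockout cells. Adcy5, an adenylyl cyclase, fell by 0.89 and 0.63. Its call in knockout cells was lost without replicate 2, 6 or 8 (adjusted p up to 0.195), whereas Adcy6 rose by 0.58 and 0.54. The casein kinase gene Csnk1g1 rose (0.70 and 0.96). The ubiquitin ligase gene Itch rose too (0.78 and 0.90), with its call lost in wild type cells without replicate 1, 3 or 9 (up to 0.199) and in knockout cells without 10 (0.104). Btrc, which targets Gli3 for processing, rose in wild type cells on its brightest probe set (0.74, adjusted p = 0.0375, lost without replicate 3, 5, 6 or 9, up to 0.305). With the mean of all probe sets of a gene, Evc (adjusted p = 0.206), Adcy5 (0.251), Itch (0.86) and Mgrn1 (0.241) were not called in wild type cells, Itch (0.9) and Adcy5 (0.681) were not in knockout cells, and Btrc stood at -0.41 and Disp1 at -0.34 in wild type cells.

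Of 16 tested target genes other than the 9, 2 rose and 5 fell with Shh in wild type and 2 rose and 4 fell in knockout cells. Among all genes 14.0% rose and 19.8% fell in wild type cells, and 11.0% rose and 17.0% fell in knockout cells. Ccnd1, the D-type cyclin of dividing precursors, rose from 3360 ± 236 (SD, n = 3) to 6074 ± 343 (n = 2) in wild type cells (log2 0.86, adjusted p = 0.00142). It rose from 4682 ± 534 to 6657 ± 995 in knockout cells (0.51, adjusted p = 0.0219, lost without replicate 2 or 8, up to 0.174). Mycn, which drives precursor proliferation, rose by log2 0.55 and 0.50, with its call lost without replicate 7 in wild type (0.0848) and without 8 or 10 in knockout cells (up to 0.147). Ccnd2 stood at 0.37 (adjusted p = 0.053) and 0.36 (adjusted p = 0.0687). The genes that fell in both genotypes were Igf2, an imprinted growth factor, the homeobox gene Nkx2-2, the Notch effector Hes1 and the adaptor gene Gab1. Nkx2-2 stood at -1.47 in wild type and -0.45 in knockout cells, where its call was lost under 11 settings (adjusted p up to 0.312, without replicate 8). Bmp4 fell in wild type cells (log2 -1.88, adjusted p = 0.00892, lost without replicate 9 at 0.0723). In the genotype comparison without Shh, 0 genes of these 4 lists passed the adjusted threshold in limma. With 3, 5, 37 and 16 genes tested, 8 had an unadjusted p under 0.05, against 8.68% of all genes. With Shh the target genes Igf2 (log2 1.64, adjusted p = 0.000325) and Nkx2-2 (1.24, adjusted p = 0.00949, lost without replicate 7 at 0.0542) were higher in knockout cells, though neither was called when only the 4 Shh-treated arrays were fitted (0.0721 and 0.144). In that comparison 3 of 10 oligodendrocyte lineage markers were called higher too. The part of other cell types in the values of these target genes was not tested. Igf2 was also called for the interaction (adjusted p = 0.0382), a call that was lost without any 1 of the 10 arrays and with the replicate block (0.387). With only the compared groups in the fit, the Shh calls of Ccnd1 (0.0584), Mycn (0.0673), Adcy5 (0.0722) and Nkx2-2 (0.0787) in knockout cells and of Disp1 (0.0541), Itch (0.0687) and Btrc (0.0703) in wild type cells were lost.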

How the data were processed

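RNA from 10 cultures was hybridised to Affymetrix Mouse Genome 430 2.0 arrays. The deposited values are signal intensity on a linear scale, which the authors made with GCOS 1.2 and MAS5, per the submitters' processing notes. No detection calls were used here. Precision is limited by the few arrays.

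Of 45101 probe sets, 64 controls were left out. Of the rest, 34945 carried 1 gene symbol in the platform annotation, 932 several and 9160 none. Of those with 1 symbol, 34741 matched RefSeq GRCm38.p6 by Entrez identifier, which changed 0 symbols. A floor of 20.9 (the 25th percentile) was set before the log2 step. The probe set of highest mean stood for its gene, and 11405 genes with a mean at or above the median probe set (a signal of 76.1) were tested.

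One mean per group was fitted to all 10 arrays by lmFit and eBayes of limma 3.58.1, run in R 4.3.3 (6 residual and 3.11 prior degrees of freedom). Tests were two-sided with Benjamini-Hochberg adjustment over all genes, and the threshold was 0.05. Errors are standard errors (SE) of the fit unless given as SD. The fit was tested on simulated data.

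The labels give unique numbers and no pairs. Consecutive numbers deviated together from their group means (r over genes 0.12 to 0.278 for the untreated pairs and 0.16 with Shh, against -0.265 to 0.0529 for other untreated pairings). Deviations within a group cancel out, so these r are not independent of one another. With 2 arrays per group both Shh pairs must give the same r. A second fit used consecutive numbers as a block, with 3 residual degrees of freedom for the genotype contrasts and a correlation of 0.289 for the Shh contrasts.

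Named were the 9 members with every probe set, up to 3 called genes per direction, list and comparison from the other pathway lists, plus Shh, Sufu, Ccnd1, Ccnd2 and Mycn whatever their values, and up to 2 genes of like pattern. Bmi1, Atoh1, Zic1, Gdf10, Sox9, Gfap, Cntn1, Neurod2, Rbfox3, Gabra6, Grin2c, Pdgfra, Ptprc, Cd68, Cspg4, Hes1 and Gab1 were named after their values were seen. The members and lists were chosen with earlier results of these data known. Alternatives covered the variance prior, the floor, the filter, normalization, the choice of probe set, the arrays in the fit, the block and each array left out.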

Additional observations from a re-analysis of the deposited data

Results flagged for a closer look

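Igf2, an imprinted growth factor listed among the hedgehog target genes, differed in its response to Shh between genotypes by the interaction term of the limma fit (log2 1.46, adjusted p = 0.0382). Its signal was 614.2 ± 42.7 (SD, n = 3) without and 133.7 ± 5.68 (n = 2) with Shh in wild type cells, and 692.6 ± 53 without and 415.1 ± 16 with Shh in knockout cells. The call was lost in 17 of the alternatives, each of the 10 arrays left out among them (adjusted p up to 0.419). With consecutive replicate numbers as a block the adjusted p was 0.387. With the mean of all its probe sets the difference was smaller (log2 0.68, adjusted p = 0.373).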

How the results depend on the processing

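Counts of called members kept within 1.5 times of the reported ones in 128 of 130 checks. In the genotype comparison without Shh the count was 0 as reported, 2 with a mean-variance trend and robust prior and 1 with the filter at the 75th percentile. The block of consecutive replicate numbers left the count at 0 for the genotype effects and the interaction, and at 4 and 3 for Shh in wild type and knockout cells. It changed no member's call. Only Gli1 with Shh in knockout cells lost a call, without replicate 8 (log2 0.39, adjusted p = 0.0633).

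Differences that changed sign, with the cause not tested, were these. With the mean of all probe sets of a gene, the interaction was 0.21 for Ptch1, 0.54 for Gas1 and -0.07 for Gli2, the genotype difference without Shh was 7.3e-04 for Smo, -0.22 for Gas1 and 0.13 for Gli2, that with Shh was -0.05 for Boc, and the Shh difference was 0.17 for Gli2, -0.34 for Disp1 and -0.41 for Btrc in wild type and 0.23 for Gas1 in knockout cells. Without replicates 1 and 6, which had the high 18S signal, the genotype difference without Shh was 0.06 for Smo and -0.08 for Gas1, the interaction was 0.07 for Cdon and 0.27 for Gas1, and the Shh difference in knockout cells was -0.03 for Gli2. After quantile normalization, the Shh difference in wild type cells was 0.04 for Cdon, and the genotype difference without Shh was 1.8e-03 for Gli2.

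With each array left out in turn, the Shh difference in wild type cells ranged from -0.03 to 0.28 for Smo, -0.26 to 0.40 for Hhip and -0.41 to 0.14 for Gas1. In knockout cells it ranged from -0.15 to 0.03 for Smo, -0.56 to 0.15 for Gas1 and -0.07 to 0.16 for Gli2. The genotype difference without Shh ranged from -0.16 to 0.02 for Smo and -0.08 to 0.08 for Gli2. With Shh it ranged from -0.14 to 0.22 for Gli1, -0.16 to 0.55 for Gas1 and -0.03 to 0.20 for Gli2. The interaction ranged from -0.13 to 0.02 for Ptch1, -0.36 to 0.18 for Cdon, -0.42 to 0.29 for Gas1, -0.03 to 0.20 for Gli2 and -0.08 to 0.34 for Gli3, and the average genotype difference from -0.01 to 0.10 for Gli2. None of these differences was called. A fit on the compared groups alone was not run for the interaction and the average, which need all 4 groups. Scaling moved the median of all genes by less than 0.1 on the log2 scale. With 2 or 3 arrays per group precision was lowest for Gas1, whose Shh difference in wild type cells had an interval of -0.94 to 0.67.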
